A study of Mus musculus with 9 samples.

Results

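Arc, Junb, Ier2, Csrnp1 and Maff are immediate early genes, and Bdnf is a neurotrophin gene driven by the same kind of signal. These 6 genes were found by their symbols in a deposited table of 9803 genes, where each had 1 probe set. The table came from amygdala of C57BL/6J males aged 10 weeks and held the RNA that was pulled down together with Argonaute 2 (Ago2), which loads microRNAs and binds the transcripts they pair with. The 9 arrays formed 3 groups. There were 3 control arrays, numbered 1, 2 and 4, from mice without social defeat, and 3 susceptible and 3 resilient arrays from mice that had been through chronic social defeat, a stress protocol of repeated exposure to an aggressor. Tissue of all groups, controls included, was collected 8 days after the end of the protocol, and Ago2 was immunoprecipitated before RNA extraction. How mice were sorted into susceptible and resilient is not stated in the sources used. Since no label tells whether arrays stand for single animals or for pools, the p-values speak to variation among these arrays alone, part or all of which may be technical.

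Immediate early genes are switched on within minutes of synaptic activity, without new protein synthesis, when calcium and kinase signals act on transcription factors already bound to DNA, such as CREB and SRF. Many encode transcription factors that drive a later wave of genes, while Arc acts directly at the synapse. Bdnf has several promoters, some of which respond to calcium, and its protein strengthens synapses through the receptor TrkB. In the amygdala these genes are widely used as markers of neurons engaged by fear and stress, and their transcripts decay within hours.

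The promoters of these genes are where the activity signal is read, and the stretches that hold the letters of known response elements are shown here to place the members. Promoter sequences came from RefSeq (build GRCm38.p6), which gave 1 start site for Junb, 4 for Csrnp1, 3 for Maff and 7 for Bdnf. The 250 bases before each start site were searched on both strands. The motifs were the cyclic AMP response element (CRE, TGACGTCA), its core TGACG, which reads CGTCA on the other strand and lies inside every full CRE, the AP-1 site TGANTCA, and the serum response element by its CArG box. Capitals mark the match in each sequence, written 5′ to 3′ on the strand of the gene. The Junb stretch is at chr8:84978810-84978894 (minus strand), Maff at chr15:79347480-79347509 (plus strand) before the second listed start, Bdnf at chr2:109692390-109692416 (plus strand) before the third, and Csrnp1 at chr9:119983108-119983136 (minus strand) before the fourth.
Junb, CRE core: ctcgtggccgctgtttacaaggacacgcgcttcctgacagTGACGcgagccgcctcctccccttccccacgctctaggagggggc
Maff, full CRE: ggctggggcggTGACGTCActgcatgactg
Bdnf, CRE core: atgacagctcaCGTCAaggcagcgtgg
Csrnp1, AP-1 site: gcgaggcttggTGAGTCAcggaccccggg
Over all 32851 promoters, 1.55% held a full CRE, 17.8% a CRE core, 6.75% an AP-1 site and 1.47% a CArG box in the same length. CRE cores were found before all 4 start sites of Csrnp1, before the 1 of Junb, before 2 of 3 in Maff and before 1 of 7 in Bdnf. AP-1 sites were found before 1 of 4 in Csrnp1 and before 1 of 7 in Bdnf. No CArG box was found in these windows, which cover 4 of the 6 members and leave out Arc and Ier2. A match is a description of the letters and not of binding.

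All values are log2 signals from RMA, a method that corrects the background, brings arrays to one distribution and summarises the probes of a transcript. Such a value joins the abundance of a transcript, its binding to Ago2 and any unbound carry-over, and fewer cells of a type and less RNA per cell cannot be told apart. Array medians lay between 7.11 and 7.19. The table had been selected on the outcome, since for every gene the smallest p of a one-way comparison of the 3 groups was at most 0.287. The members' own values of that p were 0.0536 for Ier2, 0.113 for Csrnp1, 0.210 for Arc, 0.250 for Junb, 0.267 for Bdnf and 0.277 for Maff, so 3 of them, Junb, Bdnf and Maff, lay close to the limit beyond which genes are missing. No transcript was measured without precipitation here, and the number of arrays limits the precision.

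None of the 6 genes differed between groups by more than the spread between arrays allowed limma to call, at an adjusted p under 0.05 over all 9803 genes. This held for defeated minus control (mean of both defeated groups), where 1.29% of all genes were called, for susceptible minus control (2.4% of all genes, or 0.0102% when each p is divided by 0.287 to allow for the selection of the table), and for resilient minus control and susceptible minus resilient, where limma called 0.0%. In those last 2 comparisons 2077 genes (21.2%) and 1158 genes (11.8%) passed an unadjusted p of 0.05. The largest difference of a member was that of Csrnp1 between susceptible and resilient mice, at 1.13-fold. Over the 4 comparisons the 95% intervals of the 6 genes lay between 0.854-fold and 1.25-fold, on the compressed scale of RMA signals and with limma's pooled spread. In no comparison did the arrays of the groups separate fully for any member, although 17.4% of all genes did so in defeated minus control, 40.2% in susceptible minus control, 28.1% in resilient minus control and 15.0% in susceptible minus resilient.

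**Figure D1:**
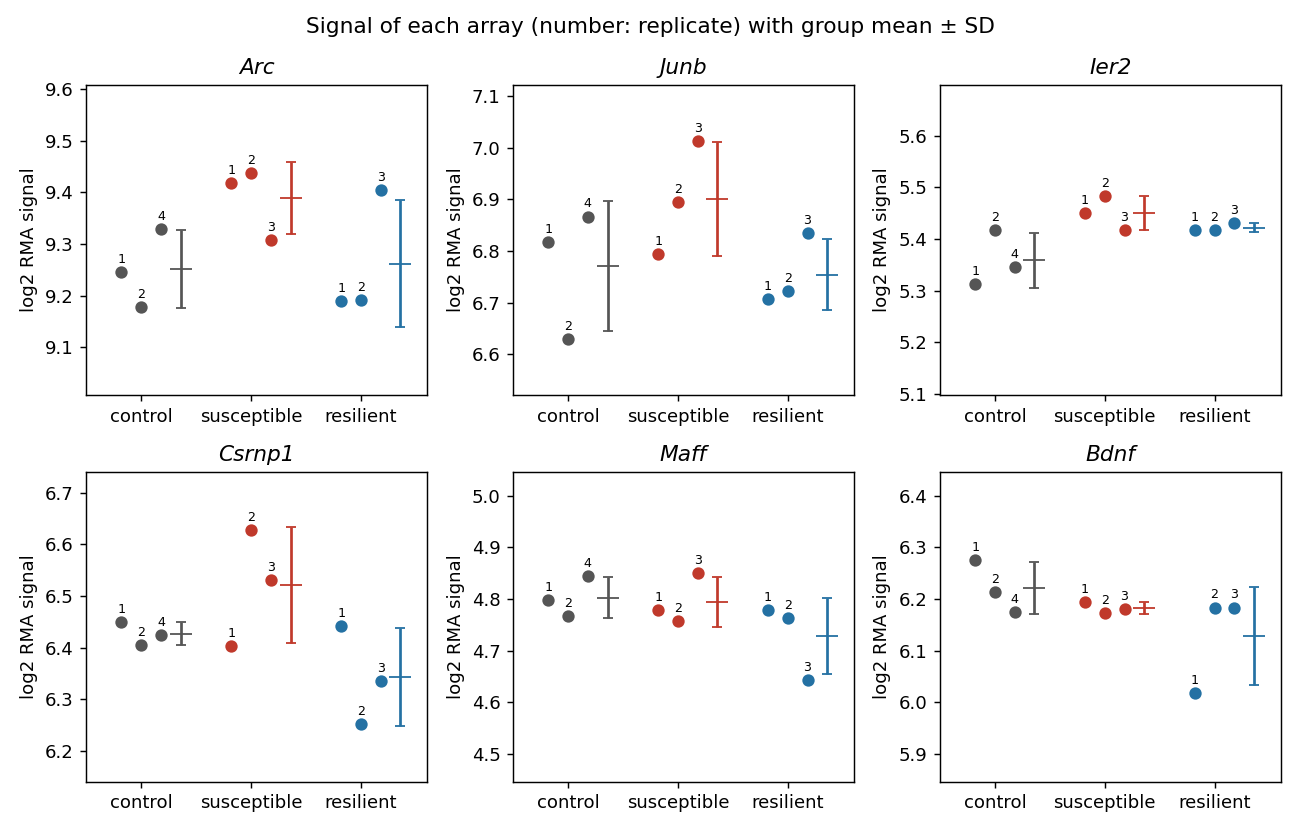
Log2 RMA signal (vertical axis, 0.6 log2 units in every panel) of the 6 genes on each array, by group on the horizontal axis. Numbers beside the points are replicate numbers, and the bar beside each group is its mean with SD (n = 3). The 3 groups overlap in every panel, and single arrays such as resilient 3 for Arc and Maff and resilient 1 for Bdnf set much of the spread.

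Arc encodes a capsid-forming protein that removes AMPA receptors from active synapses, and its transcript travels to dendrites. The Arc gene lies on chromosome 15 from 74669081 to 74672570 (GRCm38.p6). Its log2 signal was 9.25, 9.18 and 9.33 on control arrays 1, 2 and 4, 9.42, 9.44 and 9.31 on susceptible arrays 1 to 3, and 9.19, 9.19 and 9.40 on resilient arrays 1 to 3. Susceptible arrays 1 and 2 were above all controls, whereas susceptible 3 lay inside the control range and resilient 3 was above all controls and inside the susceptible range. Mean ± SD was 9.25 ± 0.08 for the 3 controls, 9.39 ± 0.07 for the 3 susceptible and 9.26 ± 0.12 for the 3 resilient arrays. The order was susceptible, resilient, control, and the arrays of neighbours in it overlapped. Susceptible and control mice differed by 0.14 (SE 0.068), with an adjusted limma p of 0.139. Susceptible and resilient mice differed by 0.13 (SE 0.068), with an adjusted limma p of 0.414.

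One resilient array carried much of the resilient mean of Arc. Without resilient 3 the resilient minus control difference was -0.06 in place of 0.01, and the susceptible minus resilient difference was 0.20 (limma adjusted p = 0.282). Quantile normalisation of the table also turned the sign of the defeated minus control difference of Arc, from 0.07 to -0.01. In susceptible minus control mice the difference of Arc was 0.07 (limma adjusted p = 0.426) with arrays shifted to one median and 0.03 (limma adjusted p = 0.719) with quantile normalisation, in place of 0.14. With limma's array weights, which count discordant arrays less, the susceptible minus control difference of Arc was 0.17 with an adjusted limma p of 0.0490, and in none of the other settings did it pass. The same weights called 3443 genes of the table in place of 235.

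Junb encodes a partner of Fos proteins in the AP-1 transcription factor, and among Jun proteins it is the one that often restrains AP-1 activity. The gene lies on chromosome 8 from 84976909 to 84978748. Control arrays had a log2 signal of 6.82, 6.63 and 6.87 for Junb, susceptible arrays 6.79, 6.89 and 7.01, and resilient arrays 6.71, 6.72 and 6.83. Susceptible 2 and 3 were above all other arrays, control 2 was below all others, and the remaining 6 lay together. Mean ± SD was 6.77 ± 0.13 for the 3 controls, 6.90 ± 0.11 for the 3 susceptible and 6.75 ± 0.07 for the 3 resilient arrays. Susceptible minus resilient was 0.15 (SE 0.075, 95% interval -0.02 to 0.31), with a limma adjusted p of 0.411, and susceptible minus control was 0.13 (SE 0.075, limma adjusted p = 0.178). The latter was 0.06 without control 2 and 0.07 without susceptible 3. The resilient and control means of Junb were -0.02 apart (SE 0.075), a difference smaller than either group's SD.

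Ier2 encodes a small nuclear protein of the immediate early response whose biochemical role is less settled. The gene lies on chromosome 8 from 84661331 to 84662852. Log2 signals of Ier2 were 5.31, 5.42 and 5.35 on the control arrays, 5.45, 5.48 and 5.42 on the susceptible arrays and 5.42, 5.42 and 5.43 on the resilient arrays. Control 2, susceptible 3 and resilient 2 shared one value, which RMA's probe summary can produce, so these arrays have no order among themselves. Controls 1 and 4 were below all 6 defeated arrays, and control 2 was level with 2 of them and above resilient 1. Mean ± SD was 5.36 ± 0.05 for the 3 controls, 5.45 ± 0.03 for the 3 susceptible and 5.42 ± 0.01 for the 3 resilient arrays.

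Ier2 was the 1 member with an unadjusted limma p under 0.05 against controls. Defeated minus control was 0.08 (SE 0.034, 95% interval 0.002 to 0.15), with an unadjusted p of 0.0445 and an adjusted limma p of 0.131. In that comparison 36.9% of the table passed an unadjusted p of 0.05, and 40.7% did so in susceptible minus control. An exact permutation test over the 84 arrangements of 6 and 3 arrays gave a two-sided p of 0.0476, in a table whose selection favours the real arrangement. Susceptible minus control was 0.09 (SE 0.039) with an adjusted limma p of 0.114, against 0.0419 with array weights. With arrays shifted to one median both differences of Ier2 were 0.03, with unadjusted limma p-values of 0.447 and 0.518, and with a variance trend those p-values were 0.0582 and 0.0533. The signal of Ier2 also lay within the range of olfactory and vomeronasal receptor genes, which are little used in brain and serve here only as a guide to signals of genes with little transcript: the 5th to 95th percentiles of 588 such genes were 4.73 to 6.12.

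Csrnp1 encodes a nuclear transcriptional activator induced by axin in human cells. The gene lies on chromosome 9 from 119971163 to 119984742. Its log2 signal was 6.45, 6.41 and 6.43 on the control arrays, 6.403, 6.628 and 6.531 on the susceptible arrays and 6.44, 6.25 and 6.34 on the resilient arrays. Controls lay close together, susceptible 2 and 3 were above them, resilient 2 and 3 were below them, and susceptible 1 and resilient 1 were level with them. Mean ± SD was 6.43 ± 0.02 for the 3 controls, 6.52 ± 0.11 for the 3 susceptible and 6.34 ± 0.09 for the 3 resilient arrays.

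Csrnp1 had the largest difference of the 6 genes between susceptible and resilient mice, 0.18 (SE 0.064, 95% interval 0.03 to 0.32). The unadjusted limma p was 0.0206 and the adjusted p 0.411, in a comparison where 11.8% of the table passed at that level. In the exact permutation test the two-sided p was 0.2, where 3 arrays against 3 cannot go below 0.1. The difference was between 0.12 and 0.24 with any 1 array left out. Against controls it was 0.09 (SE 0.064) in susceptible mice, or 0.04 to 0.15 with 1 array left out, and -0.08 (SE 0.064) in resilient mice, so defeated mice as a whole were at 0.01 (SE 0.055), a value that turned to -0.04 with arrays shifted to one median and to -0.01 with quantile normalisation.

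Maff encodes a small Maf protein, which lacks an activation domain and pairs with CNC factors such as Nrf2 or with Bach proteins. The gene lies on chromosome 15 from 79346621 to 79359078. Its log2 signal was 4.797, 4.767 and 4.844 on the control arrays, 4.78, 4.76 and 4.85 on the susceptible arrays and 4.78, 4.76 and 4.64 on the resilient arrays. Every array except resilient 3 lay between 4.76 and 4.85, and resilient 3 was below all others. Mean ± SD was 4.803 ± 0.039 for the 3 controls, 4.79 ± 0.05 for the 3 susceptible and 4.73 ± 0.07 for the 3 resilient arrays. Resilient minus control was -0.07 (SE 0.048, limma adjusted p = 0.314), or -0.03 without resilient 3. The whole signal of Maff lay near the 5th percentile of the receptor genes, so a change of a scarce transcript may not have been detectable.

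Bdnf encodes brain-derived neurotrophic factor. The gene lies on chromosome 2 from 109674700 to 109727043, and its 1 probe set gives no reading by promoter. Its log2 signal was 6.27, 6.21 and 6.18 on the control arrays, 6.19, 6.17 and 6.18 on the susceptible arrays and 6.02, 6.18 and 6.18 on the resilient arrays. Controls 1 and 2 were above all other arrays, resilient 1 was below all others, and the remaining 6 lay between 6.17 and 6.19. Resilient 1 was inside the range of the receptor genes, 4.73 to 6.12, and the other arrays lay just above it. Mean ± SD was 6.22 ± 0.05 for the 3 controls, 6.18 ± 0.01 for the 3 susceptible and 6.13 ± 0.10 for the 3 resilient arrays. The order was control, susceptible, resilient, and the arrays of neighbours overlapped.

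Bdnf had the most negative difference of the 6 genes against controls. Defeated minus control was -0.07 (SE 0.044, 95% interval -0.16 to 0.03, limma adjusted p = 0.245), susceptible minus control -0.04 (SE 0.051, limma adjusted p = 0.527) and resilient minus control -0.09 (SE 0.051, limma adjusted p = 0.271). With arrays shifted to one median the defeated minus control difference was -0.11 (limma adjusted p = 0.0862). Without resilient 1 the resilient minus control difference of Bdnf was -0.04 and the susceptible minus resilient difference 0.00 in place of 0.05. Resilient 1 also stood apart in other genes, with 4 oligodendrocyte markers 0.09 above the control mean where the other defeated arrays were between -0.41 and -0.30, and 5 striatal-type neuron markers 0.61 above it where the other arrays were between -0.57 and 0.10. The part of these cells in the values was not tested.

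**Figure D2:**
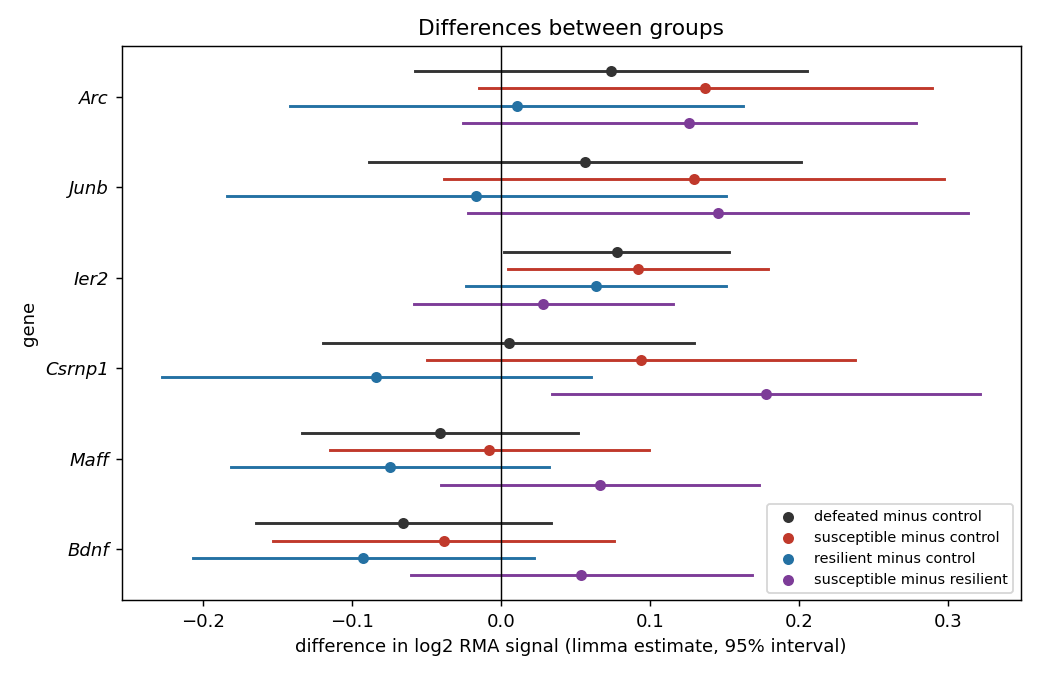
Differences in log2 RMA signal (horizontal axis) for each gene (vertical axis) in the 4 comparisons, as limma estimates with 95% intervals. Intervals of Ier2 in defeated and susceptible against control mice and of Csrnp1 in susceptible against resilient mice leave out 0, and none of the 24 estimates passed adjustment over all genes.

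Between susceptible and resilient mice all 6 genes had a higher mean in susceptible mice, from 0.03 for Ier2 to 0.18 for Csrnp1, in a table where 54.1% of genes were higher and 45.9% lower. The values are Csrnp1 0.18, Junb 0.15, Arc 0.13, Maff 0.07, Bdnf 0.05 and Ier2 0.03, with SEs of 0.064, 0.075, 0.068, 0.048, 0.051 and 0.039. None passed the test, and the arrays overlapped for each gene. With arrays shifted to one median Ier2 stood at 0.00, and without resilient 1 Bdnf did, each with a negative sign. Against controls, 4 members were higher and 2 lower in defeated mice (58.6% of all genes were higher and 41.4% lower), the same split held in susceptible mice (57.9% higher and 42.0% lower), and 2 were higher and 4 lower in resilient mice (58.4% higher and 41.6% lower). The susceptible comparisons share their arrays with the defeated comparison, and those against controls share the controls.

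**Figure D3:**
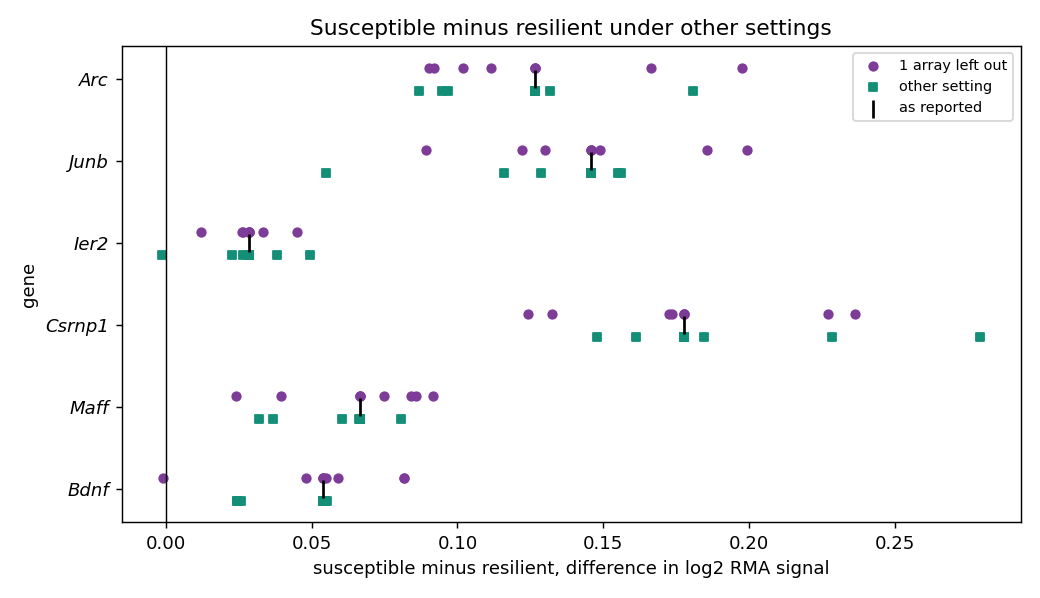
Susceptible minus resilient difference in log2 RMA signal (horizontal axis) of each gene (vertical axis) as reported, with 1 array left out, and under the other settings. Csrnp1, Junb, Arc and Maff stay above 0 under every setting drawn, while Bdnf and Ier2 touch 0.

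Choroid plexus and ependymal markers were highest in the susceptible group. Of 24 listed, 20 were measured, and each of these was above its control mean in susceptible mice (median difference 0.52). limma called 0 of them, against 2.4% of the table. An unadjusted limma p under 0.05 was reached by 18, against 40.7% of the table. In resilient mice 19 were above the control mean and 1 below (median 0.14). Relative to the control mean, the average of these markers was between -0.20 and 0.27 on control arrays, 0.31 and 0.75 on susceptible arrays and -0.19 and 0.34 on resilient arrays. With that average as a covariate the susceptible minus control difference was 0.01 for Junb in place of 0.13, 0.08 for Arc in place of 0.14, 0.10 for Ier2 and 0.16 for Csrnp1, and the susceptible minus resilient difference was 0.05 for Junb and 0.23 for Csrnp1. Susceptible arrays did not overlap with controls in that average, and only narrowly with resilient arrays. Fits with this covariate, here and below, can therefore not separate it from the group. Endothelial and mural markers, from cells that also use Junb and Ier2, had 6 of 12 higher in defeated mice. Their average was between -0.13 and 0.10 on control, -0.10 and 0.10 on susceptible and -0.01 and 0.06 on resilient arrays. The 6 measured pan-neuronal genes averaged between -0.05 and 0.01 of the control mean on every array. Microglia and macrophage markers were lower in susceptible than in control mice for 8 of 8 measured (median -0.16), and oligodendrocyte markers for 4 of 4 (median -0.31). In resilient against control mice they were lower for 7 of 8 (median -0.08) and 4 of 4 (median -0.20). Striatal-type and central amygdala neuron markers were lower in susceptible than in control mice for 4 of 5 measured of 20 listed (median -0.42, or -0.53 against resilient mice). Both measured markers of basolateral excitatory neurons, of 14 listed, were lower in susceptible than in resilient mice (median -0.22). Astrocyte markers were measured for 4 of 13 listed, with 2 higher and 2 lower in susceptible than in control mice. limma called 1 of these 4 in that comparison, where it called 2.4% of the table. Their average was between -0.02 and 0.01 on control, 0.04 and 0.11 on susceptible and 0.02 and 0.05 on resilient arrays. Of the markers in the other lists limma called 0. So few were in the table that the labelled tissue could be checked only in part, and the part of these cells in the members' values was not tested.

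Of 65 immediate early genes listed, 22 were in the selected table, and 13 lay above and 9 below the controls in defeated mice, their median being 0.02 against 0.04 over all genes. That median turned to -0.03 after a shift of arrays to one median and to -0.01 after quantile normalisation. The median over all genes moved as well, to -0.01 and 0.007. Of these, limma called 1 in susceptible minus control, where it called 2.4% of the table, and 0 in the other 3 comparisons. In susceptible against resilient mice 15 lay above 0 and 7 below, and their median was 0.08 against 0.01 over all genes. With arrays shifted to one median their median was 0.05 against -0.02 over all genes.

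The gene called in susceptible mice was Trib1, a pseudokinase that targets proteins for degradation. Log2 signals of Trib1 were 8.20, 8.23 and 8.20 on the control arrays, 8.41, 8.67 and 8.47 on the susceptible arrays and 8.38, 8.38 and 8.46 on the resilient arrays. All 6 defeated arrays were above all controls, and 17.4% of the table had no overlap in one direction or the other. Trib1 rose by 0.30 (SE 0.062) in susceptible mice, with a limma adjusted p of 0.0460, which was 0.161 with the allowance for selection. With 1 array left out it ran from 0.0153 to 0.110, and it stayed under 0.05 only without susceptible 1 or without resilient 1. Quantile normalisation gave 0.20 (limma adjusted p = 0.0809). With the choroid plexus average as a covariate Trib1 was at 0.32 (limma adjusted p = 0.304). Other members of the list had differences that were not called in defeated against control mice. These were 0.20 (SE 0.063) for Per1, a clock gene that glucocorticoids and light induce, 0.12 (SE 0.039) for the survival gene Mcl1, 0.12 (SE 0.058) for Srf, the factor that binds serum response elements, and -0.11 (SE 0.045) for the phosphatase gene Dusp14. With the same covariate Per1 was at 0.18, Mcl1 at 0.07, Srf at 0.08 and Dusp14 at -0.08. Without control 1 Dusp14 was at -0.07. Between susceptible and resilient mice the repressor gene Nfil3 was at 0.20 (SE 0.067) and Crem, a CREB relative, at -0.11 (SE 0.057). Both had a limma adjusted p of 0.411, and Crem was at -0.06 without susceptible 1. With the choroid plexus covariate Nfil3 was at 0.21 and Crem at -0.11.

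**Figure D4:**
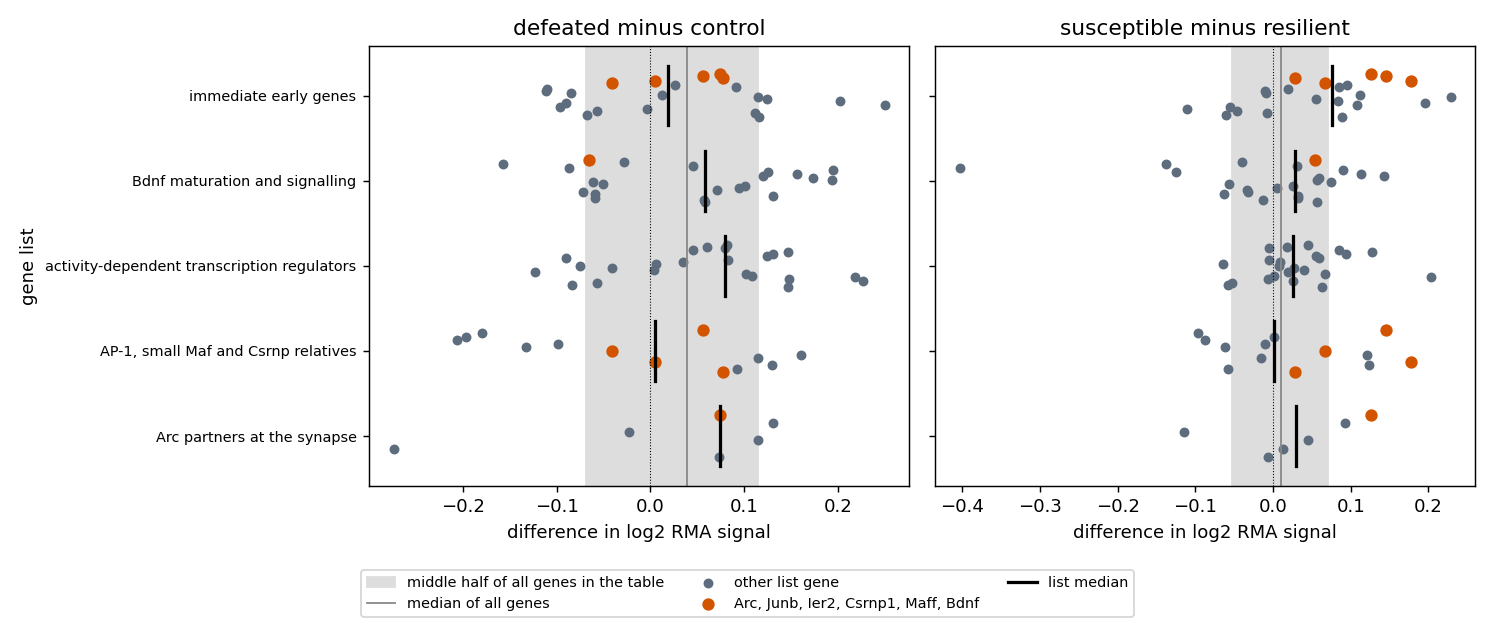
Differences in log2 RMA signal (horizontal axis) of the genes of 5 lists (vertical axis) in defeated minus control and susceptible minus resilient. Orange points are the 6 genes described here, black bars are list medians, and the grey band and line are the 25th to 75th percentile range and the median of all 9803 genes. Genes of every list fall on both sides of 0, and the median of immediate early genes is 0.02 in the first panel and 0.08 in the second.

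Genes that make, sort or transmit Bdnf were measured for 22 of 36 listed, Bdnf included. In defeated against control mice 13 lay above 0 and 9 below, where 58.6% of all genes lay above. Their median was 0.06 against 0.04 over all genes. limma called 0 in any of the 4 comparisons, where it called at most 2.4% of the table. The proprotein convertase genes Pcsk6 and Pcsk7 were at 0.17 (SE 0.046) and 0.19 (SE 0.063). The signalling phospholipase gene Plcg1, which TrkB activates, was at 0.13 (SE 0.041), and the sorting receptor genes Sorl1 and Sorcs2 at 0.19 (SE 0.082) and 0.16 (SE 0.064). Their limma adjusted p-values were 0.0701, 0.0939, 0.0870, 0.129 and 0.124. Quantile normalisation lowered Pcsk6 to 0.08, Pcsk7 to 0.12, Plcg1 to 0.06 and Sorcs2 to 0.07. Without control 2 Sorcs2 was at 0.10. With the choroid plexus covariate Pcsk6 was at 0.16, Pcsk7 at 0.13, Plcg1 at 0.13, Sorcs2 at 0.15 and Sorl1 at 0.10. Ngfr, the p75 receptor that binds proneurotrophins, was at -0.40 (SE 0.16) in susceptible minus resilient mice with a limma adjusted p of 0.411, and its resilient arrays ranged from 7.67 to 8.32. The difference of Ngfr was -0.19 without resilient 1 and -0.21 with the choroid plexus covariate.

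Regulators that carry activity to these promoters were measured for 23 of 44 listed. In defeated mice 17 lay above 0 and 6 below, where 58.6% of all genes lay above. Their median was 0.08 against 0.04 over all genes. With arrays shifted to one median it was 0.03 against -0.01, and with quantile normalisation 0.03 against 0.007. limma called 0 in any comparison, where it called at most 2.4% of the table. The neuronal gene silencer Rest was at 0.23 (SE 0.068), the histone deacetylase gene Hdac4 at 0.22 (SE 0.071) and Crtc3, a CREB coactivator, at 0.15 (SE 0.051), with limma adjusted p-values of 0.0800, 0.0950 and 0.103. With the choroid plexus covariate Rest was at 0.26, Hdac4 at 0.11 and Crtc3 at 0.07. Crtc1, the related coactivator of neurons, was at 0.09 (SE 0.037) in susceptible minus resilient mice, or 0.05 with that covariate.

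Relatives of Junb, Maff and Csrnp1 were measured for 13 of 33 listed, with 7 above and 6 below 0 in defeated mice. Their median was 0.01 against 0.04 over all genes. limma called 1, Bach1, in susceptible minus control, against 2.4% of the table. Bach1 encodes a repressor that pairs with small Maf proteins such as Maff. Bach1 had log2 signals of 8.35, 8.30 and 8.27 on the control arrays, 8.47, 8.49 and 8.62 on the susceptible arrays and 8.41, 8.41 and 8.40 on the resilient arrays. All 6 defeated arrays were above all controls and all susceptible arrays above all resilient ones, where 17.4% and 15.0% of the table had no overlap in either direction. Bach1 rose by 0.22 (SE 0.046) in susceptible mice, with a limma adjusted p of 0.0461, which was 0.161 with the allowance for selection and 0.0196 to 0.115 with 1 array left out, under 0.05 without the same 2 arrays as for Trib1. Quantile normalisation gave 0.12 (limma adjusted p = 0.0876). With the choroid plexus covariate Bach1 was at 0.20 (limma adjusted p = 0.315). Batf3, an AP-1 factor of dendritic cells, was at -0.21 (SE 0.057) in defeated mice and Csrnp2, a relative of Csrnp1, at 0.13 (SE 0.062). Their limma adjusted p-values were 0.0723 and 0.149. With the choroid plexus covariate Batf3 was at -0.15 and Csrnp2 at 0.02. All arrays of Batf3 lay between 5.06 and 5.52, inside the range of the receptor genes. Of 18 genes whose products work with Arc at the synapse 6 were measured, Arc included. limma called 0 of them in any comparison, where it called at most 2.4% of the table. Rnf216, which encodes a ubiquitin ligase for Arc, was at 0.11 (SE 0.045) in defeated mice, with a limma adjusted p of 0.118. The difference was 0.07 with arrays shifted to one median and with quantile normalisation, and 0.10 with the choroid plexus covariate.

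Whether the members followed one common pattern over the 9 arrays was not tested. Likeness was measured as the root mean square difference of log2 signals over the 9 arrays, with each gene centred on its own mean. Signals were not scaled, so genes that vary little can lie close without sharing a pattern. Among the pairs of members it ran from 0.08 for Maff and Bdnf to 0.13 for Arc and Maff. The members themselves varied around their means by 0.05 for Ier2 to 0.11 for Junb. Maff and Bdnf were further apart than their own variation of 0.0565 and 0.0636. Arc and Junb were 0.0906 apart, less than their own variation of 0.098 and 0.107. Junb and Csrnp1 were 0.0985 apart, also less than their own variation of 0.107 and 0.101. No other pair lay closer than the variation of both its members. The genes most like Arc were Slc38a7 (0.023), Tsc2 (0.039) and Mavs (0.043). Those most like Junb were Ppef1 (0.022), Igfbp7 (0.035) and Zbtb7b (0.037), and those most like Csrnp1 were Rita1 (0.038), Wdr38 (0.040) and Olfr1000 (0.041). For Ier2 they were Pwp2 (0.015), Ccdc90b (0.019) and Lgals2 (0.022), for Maff they included Pea15a (0.028) and Sox1 (0.029), and for Bdnf Ankrd1 (0.017), Clpsl2 (0.018) and Slc6a3 (0.020). In a table of 9803 genes and 9 arrays some genes will lie this close, and the closest that another member came was rank 1174, for Maff next to Csrnp1.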

How the data were processed

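The deposited values were log2 signals made by the authors with RMA, per the submitters' processing notes, which name Partek too. No source used here names the array model, genome build or software versions. Probe set numbers linked the sample values to the authors' table of gene symbols, whose own 9 value columns matched no sample label and were not used. Of 11772 entries the one with the highest mean was kept for each of 9803 symbols, updated through a RefSeq gene table (GRCm38.p6, with 1012 replaced and 388 unmatched).

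All 9 arrays entered 1 limma fit (limma 3.58.1, R 4.3.3; lmFit, contrasts.fit, eBayes) of 3 group means, with two-sided p-values, without filtering low signals, and with Benjamini-Hochberg adjustment over 9803 genes in each of 4 comparisons. It was tested on simulated data. Joins used pandas 2.3.3 and numpy 2.4.6 in Python 3.11.15, exact permutation tests scipy 1.17.1, and plots matplotlib 3.10.9. The allowance for selection divided each p by 0.287 before adjustment. Named list genes are among the 8 with the smallest p of a list in defeated minus control or susceptible minus resilient. The rule for likeness takes the 3 most alike genes of each member. Some genes that these rules name are not reported here. Members and lists were chosen with earlier results of these data known.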

Additional observations from a re-analysis of the deposited data

How the results depend on the processing

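No member was called in any comparison under any setting except array weights, with which Arc and Ier2 (2 members) were called in susceptible minus control mice, and each array left out in turn gave 0 members in all 4 comparisons. Over all genes the counts called were 126 in defeated and 235 in susceptible against control mice. They became 3 and 12 with quantile normalisation, 2084 and 3443 with array weights, 439 and 552 among genes at or above the median signal, 75 and 99 with every entry on its own, 255 and 407 with a variance trend, 0 and 1 with the allowance for selection, 0 and 0 with choroid plexus content as a covariate and 47 and 95 with endothelial content. Arrays shifted to one median gave 164, with 42 higher and 122 lower against 99 and 27, and 1497 in susceptible mice, with 231 higher and 1266 lower against 181 and 54. Fitting only the groups compared gave 2 in susceptible mice. With 1 array left out the counts ran from 0 to 1333 (without susceptible 1) in defeated, 0 to 1930 (without susceptible 1) in susceptible and 0 to 3 in resilient mice against controls, and from 0 to 6 between susceptible and resilient mice. Fits with the replicate number as a replicate block gave 0 and 0 genes and 0 members. No other array shares the number of control 4, so in those fits only controls 1 and 2 informed the comparisons with controls. Deviations of same-numbered arrays had correlations across genes of -0.08 to 0.25, and those of differently numbered arrays of -0.28 to 0.35. With 3 arrays a group these values cannot tell whether the numbers pair the samples.

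Members' differences that changed sign, none of them called, were defeated minus control of Arc (-0.0130 with quantile normalisation), Junb (-0.0189 with choroid plexus content) and Csrnp1 (-0.0438 with arrays shifted to one median, -0.00967 with quantile normalisation). Susceptible minus control of Maff became 0.0296 with quantile normalisation and 0.0206 with the replicate block. Resilient minus control of Arc became -0.0235 with arrays shifted to one median, -0.0603 with quantile normalisation, -0.00714 with array weights and -0.00241 with choroid plexus content, and susceptible minus resilient of Ier2 became -0.00126 with arrays shifted to one median. With 1 array left out, defeated minus control ran from -0.0143 to 0.105 for Junb and -0.0215 to 0.0347 for Csrnp1, susceptible minus control from -0.0350 to 0.0130 for Maff, resilient minus control from -0.0604 to 0.0495 for Arc and -0.0872 to 0.0316 for Junb, and susceptible minus resilient from -0.00108 to 0.0815 for Bdnf. The causes were not tested. The other members could not be tested among genes at or above the median signal, where only Arc remained. Signals close to those of little-used genes limit what could be detected for Ier2, Maff and, at the upper edge of that range, Bdnf.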
